A study of Mus musculus with 6 samples.

Results

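The 38 genes described here encode the cytoplasmic and nuclear machinery that shortens poly(A) tails, removes the 5′ cap, degrades the uncapped body of the RNA and carries out nonsense-mediated decay (NMD). They were chosen by name from the 54232 genes of the count table, as the genes of the CCR4-NOT complex, PAN2-PAN3 and PARN, the decapping enzymes and their cofactors, the LSM1-7 ring, the 5′-3′ exonucleases, and the UPF and SMG factors of NMD; the rule uses names and no measured value. All 38 had counts and all 38 passed the filter on low counts. Bulk RNA-seq was performed on whole testes of B6D2F1 mice at postnatal day 12 (P12), with 3 control libraries (genotype label Dis3l2 WT, littermates in the study) and 3 libraries labelled Dis3l2 KO. The study describes the latter mice as conditional knockouts with *Stra8-Cre*, 1 floxed and 1 null allele of *Dis3l2*, so that recombination is expected in germ cells before meiosis while the somatic cells keep the floxed allele beside the null one. *Dis3l2* encodes an exonuclease that degrades RNA from the 3′ end, independently of the exosome, with a preference for tails of added uridines. Whether a library came from 1 animal or several is not given in the sources used here, so the spread between libraries may be partly technical.

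In the cell, most mRNA decay starts at the poly(A) tail, which PAN2-PAN3 and the CCR4-NOT complex shorten. The LSM1-7 ring then binds the shortened end and promotes removal of the cap by DCP2 with its activator DCP1, after which XRN1 degrades the RNA from the 5′ end. NMD takes in mRNAs on which translation stops early: UPF1, recruited with UPF2 and UPF3, is phosphorylated by SMG1, and the SMG5 and SMG6 proteins then start deadenylation, decapping or cleavage. DIS3L2 takes the other direction from the same deadenylated and uridylated ends, and male germ cells remove many transcripts on the way into and through meiosis, so the comparison asks how the RNAs for the other decay routes stood in these testes.

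Libraries held 33325483 to 44956193 counts. The label was checked first on *Dis3l2* itself. Its level, in CPM (counts scaled to library size, with TMM factors), was 25.8, 23.5 and 23.0 in control libraries 1 to 3 and 31.6, 25.4 and 27.5 in KO-labelled libraries 1 to 3, a log2 fold change of 0.22 (SE 0.11, 95% interval −0.01 to 0.46, adjusted p = 0.136 by edgeR's quasi-likelihood test with Benjamini-Hochberg adjustment, which is the test behind every adjusted p given here). The counts thus did not show less *Dis3l2* RNA in the libraries labelled KO. A read count over the whole gene in whole testis does not tell which exons were lost or in which cells, and the other measurements of *Dis3l2* in the study were not analysed here. The design sentence of the series names *Dis3* in place of *Dis3l2*. *Dis3*, which encodes the catalytic exonuclease of the exosome, was at 133, 148 and 137 CPM in the controls and at 59.1, 64.3 and 68.1 CPM in the KO-labelled libraries (log2 fold change −1.13, adjusted p = 2.71e-07). Directions below therefore refer to the label. Markers of cell types also differed between the groups: of 19 germ cell markers, 14 were lower, 1 was higher (*Gfra1*) and 4 did not pass, with a summed level of 2659 to 3093 CPM in the controls and 953 to 1261 CPM in the KO-labelled libraries, while all 12 Sertoli cell markers were higher, from a sum of 7569 to 7888 CPM to one of 11996 to 12734 CPM.

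Of the 38 genes, 3 rose and 7 fell in the KO-labelled testes, and 28 did not pass the test. The share past the test was 26.3%, beside 32.7% of the 20327 genes tested; 7.89% rose, beside 16.2% of all genes, and 18.4% fell, beside 16.5%. The median log2 fold change of the 38 was −0.06, and that of all genes tested was −0.02. The genes that fell were *Lsm1*, *Lsm2*, *Lsm3* and *Lsm4* of the LSM1-7 ring, *Cnot10* and *Cnot11* of CCR4-NOT, and *Smg5* of the NMD machinery. The genes that rose were *Pan3*, *Upf3b* and *Smg6*. Without control library 2, 6 rose and 6 fell, beside 14.9% and 12.5% of the 21280 genes tested in that fit, and the median of the 38 was 0.03. With TMM, changes were small, from −0.76 to 0.47, and the 95% interval of every one of the 38 lay inside a 2-fold change either way. A change of 2-fold or more was seen in 0 of the 38, and 7.41% of all genes tested passed the test with such a change. With the scaling to somatic markers given below, *Lsm2* (−1.16) and *Lsm3* (−1.15) changed by more than 2-fold. In 18 of the 38 genes (47.4%) the 3 control and the 3 KO-labelled libraries did not overlap, beside 45.5% of all genes. These counts are near or below those of the whole table, so they set the list apart in neither direction. In whole testis, a lower level can come from fewer cells that hold the RNA or from less RNA per cell, and the 2 cannot be told apart. The part of the lower germ cell and higher Sertoli cell markers in these changes was not tested.

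**Figure D1:**
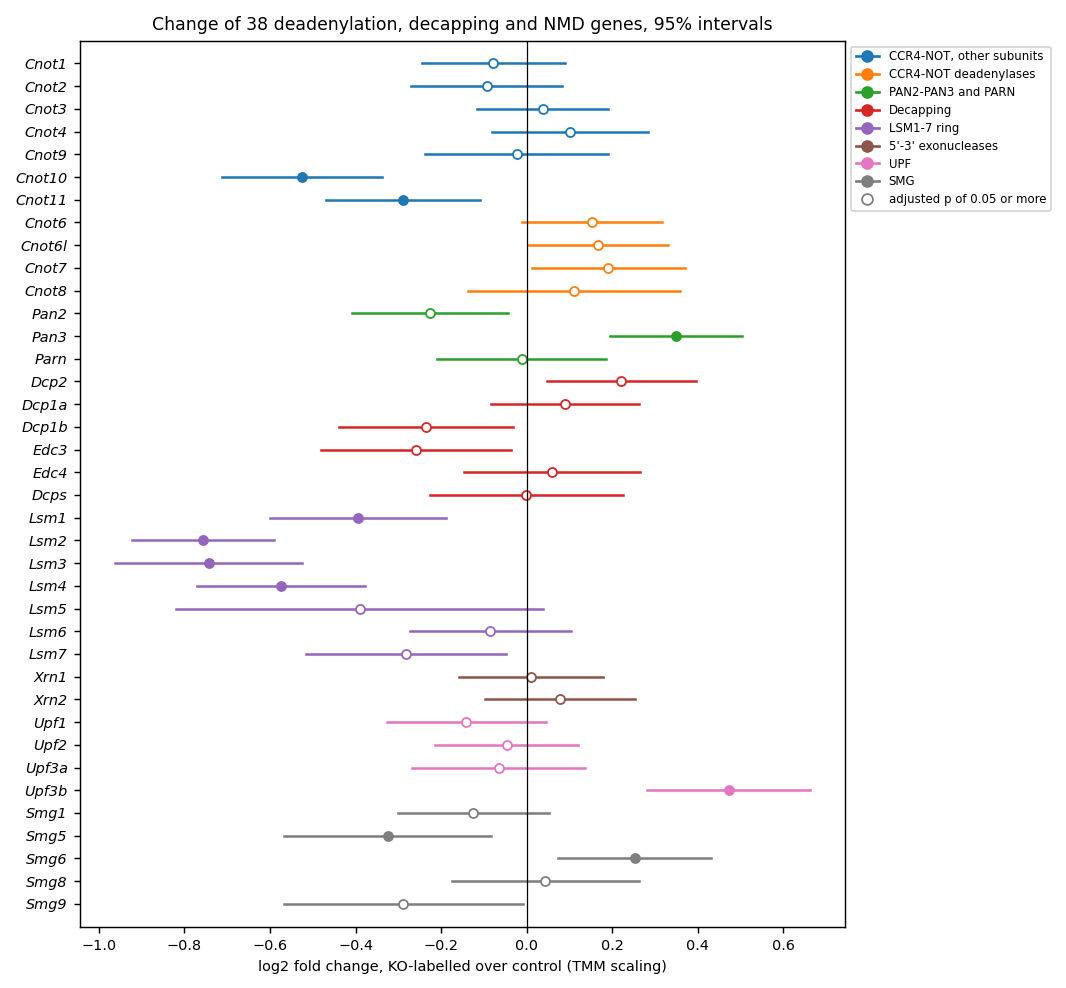
Log2 fold change (x axis, KO-labelled over control, TMM scaling) of each of the 38 genes, with its 95% interval, coloured by complex; filled points passed the test and open points did not. All 7 LSM genes lie left of 0 and 4 of them passed, while the 4 CCR4-NOT deadenylases lie right of 0 and none passed. Of all genes tested, 32.7% passed.

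The LSM1-7 ring held the largest changes. It is a ring of 7 small proteins that caps the shortened 3′ end and brings in the decapping enzyme; LSM2 to LSM7 also form, with LSM8 in place of LSM1, the nuclear ring that binds the U6 RNA of the spliceosome. All 7 genes had negative values, with a median of −0.39. Of the 7, 4 passed the test as lower, beside 16.5% of all genes tested, and no test of the ring as a list was made. *Lsm2* was at 98.5, 107 and 103 CPM in the controls and at 59.6, 61.0 and 61.9 CPM in the KO-labelled libraries. Every KO-labelled library was thus far below every control, and the libraries within a group lay close together. The level fell by 0.76 on the log2 scale (SE 0.08, adjusted p = 6.16e-06), a fall of 40.8%. *Lsm3* was at 41.6, 35.9 and 35.7 CPM in the controls and at 21.6, 22.0 and 23.9 CPM in the KO-labelled libraries (log2 fold change −0.74, SE 0.10, adjusted p = 7.12e-05). Its groups were as clearly separate as those of *Lsm2*, with control library 1 the highest. Part of *Lsm3* is hard to count: 6.32% of its exonic bases overlap an exon of another gene on the same strand.

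*Lsm4*, the member of the ring with a long arginine- and glycine-rich tail, was at 49.7, 52.5 and 50.7 CPM in the controls and at 34.4, 36.8 and 31.5 CPM in the KO-labelled libraries (log2 fold change −0.57, SE 0.09, adjusted p = 0.000244). *Lsm1*, the subunit that sets the cytoplasmic ring apart from the nuclear one, was at 29.7, 29.8 and 29.4 CPM against 23.1, 21.6 and 22.9 CPM (log2 fold change −0.39, SE 0.10, adjusted p = 0.00559). Neither gene had overlapping groups. *Lsm8*, its nuclear counterpart and no member of the ring described here, also fell, from 35.0, 33.5 and 31.6 CPM to 26.6, 26.2 and 28.4 CPM (log2 fold change −0.30, SE 0.10, adjusted p = 0.0248). The log2 ratio of *Lsm1* to *Lsm8* per kilobase of exon was 0.20, 0.27 and 0.34 in the controls and 0.24, 0.17 and 0.13 in the KO-labelled libraries, and these ranges overlapped (difference −0.09, SE 0.05, exact two-sided permutation p = 0.2). The subunits that mark the cytoplasmic and the nuclear ring were thus not shown to have moved apart.

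The other 3 subunits did not pass the test. *Lsm7* had a log2 fold change of −0.28 (95% interval −0.52 to −0.05, adjusted p = 0.0619), *Lsm5* of −0.39 (−0.82 to 0.04, adjusted p = 0.155) and *Lsm6* of −0.08 (−0.27 to 0.10, adjusted p = 0.503). In 14 alternative fits, *Lsm7* passed in 4 and *Lsm5* in 2. *Lsm5* had the widest interval of the 38 genes, with the lowest counts (189 in its lowest library), and 21.0% of its 50-base windows also occur in other genes, on either strand. The ring summed to 316 to 338 CPM in the controls and to 233 to 240 CPM in the KO-labelled libraries, so that the groups were well apart for the sum as well. Since the 7 proteins sit once each in the ring, the ratio of 2 of its genes within a library shows unequal change without any scaling between libraries. Against *Lsm6*, the log2 ratio fell by 0.67 for *Lsm2*, by 0.66 for *Lsm3*, by 0.50 for *Lsm4* and by 0.31 for *Lsm1*, and in all 4 ratios the groups did not overlap. These ratios were chosen after the values were seen and were not tested.

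The promoters of *Lsm2* and *Lsm3* are shown because these genes fell the most. The RefSeq table (GRCm38.p6) held promoters for 33 of the 38 genes, 41 in all, and none for *Lsm1* or *Lsm4*. The 250 bases before each RefSeq start were searched on both strands for 7 short motifs, and the last 150 of them are printed here with the matches in capitals. The letters searched were GCATGCGC (the NRF1 motif), CCGGAAG (ETS), AAGATGGC (YY1), TGACGTCA (the cAMP response element), CACGTG (E-box), CCCGCCC (GC box) and CNCCTCAG (STRA8), and the GC box and the ETS motif can share bases. The *Lsm2* window lies before the first of 2 RefSeq starts of the gene, at chr17:34981704-34981853 on the plus strand, and the *Lsm3* window at chr6:91515885-91516034, also on the plus strand.
Lsm2: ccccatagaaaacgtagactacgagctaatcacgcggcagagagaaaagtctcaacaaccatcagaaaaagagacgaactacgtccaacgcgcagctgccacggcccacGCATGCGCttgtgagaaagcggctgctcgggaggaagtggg
Lsm3: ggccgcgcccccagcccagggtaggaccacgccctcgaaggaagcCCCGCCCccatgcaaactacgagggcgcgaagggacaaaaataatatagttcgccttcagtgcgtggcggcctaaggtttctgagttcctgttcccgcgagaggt
The capitals in *Lsm2* are an NRF1 match that begins 41 bases before the first start. The 250 bases before the second *Lsm2* start held no NRF1 match. They held a cAMP response element that begins 34 bases before that start and a GC box at 121 bases. The capitals in *Lsm3* are a GC box that begins 105 bases before the start, and 2 more GC boxes of *Lsm3* lie outside the stretch printed. The NRF1 letters were in 3 of the 41 promoters (7.32%) and in 2.26% of all 32851. Of these 3, 2 belonged to *Cnot9* and *Upf1*, which did not pass the test. Promoters of the 38 genes were rich in G and C as a whole (61.4% of bases against 53.2% in all promoters), with a median of 22 CpG sites against 6, and matches of motifs made of these bases are to be read with that: GC boxes were in 48.8% against 23.4%, and ETS matches in 17.1% against 6.91%. The letters of the STRA8 motif were in 0 of the 41 windows and in 6.42% of all windows.

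CCR4-NOT is the main deadenylase of the cell, a large complex built on the scaffold protein CNOT1. Among its 7 subunits without deadenylase activity, the RNAs of the scaffold and of the NOT module stayed within narrow bounds, and those of the pair that docks at its N-terminus fell. *Cnot10*, which with CNOT11 forms the module at the N-terminal end of CNOT1, was at 60.4, 54.3 and 56.4 CPM in the controls and at 40.2, 37.8 and 40.9 CPM in the KO-labelled libraries. All 3 KO-labelled values lay below the lowest control by a wide margin, and the fall was 0.52 on the log2 scale (a log2 fold change of −0.52, SE 0.09, adjusted p = 0.000338). *Cnot11* was at 79.4, 77.4 and 71.5 CPM and at 60.9, 66.2 and 59.7 CPM (log2 fold change −0.29, SE 0.08, adjusted p = 0.0157). Its groups did not overlap either, but they came closer, and the adjusted p rose to 0.0908, 0.0769 and 0.0600 without control library 1, control library 2 or KO-labelled library 3, over a range of 2.05e-05 to 0.0908 in 14 alternative fits.

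The other 5, *Cnot1*, *Cnot2*, *Cnot3*, *Cnot4* and *Cnot9*, did not pass, with log2 fold changes from −0.09 to 0.10 and intervals from −0.27 to 0.28. *Cnot1* was the most abundant of the 38 by CPM (535, 571 and 537 in the controls, 483, 540 and 532 in the KO-labelled libraries), and its groups overlapped. Within a library, the log2 ratio of *Cnot10* to *Cnot1* fell by 0.44, and that of *Cnot11* to *Cnot1* by 0.21, with no overlap between the groups in either; both ratios were chosen after the values were seen and were not tested. In every KO-labelled library the RNAs of the CNOT10-CNOT11 module were thus lower relative to the scaffold than in any control.

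The promoters of *Cnot10* (minus strand, chr9:114640201-114640350) and *Cnot11* (plus strand, chr1:39535551-39535700) are shown because the 2 partners moved together. Both hold ETS and GC box letters, marked by the capitals.
Cnot10: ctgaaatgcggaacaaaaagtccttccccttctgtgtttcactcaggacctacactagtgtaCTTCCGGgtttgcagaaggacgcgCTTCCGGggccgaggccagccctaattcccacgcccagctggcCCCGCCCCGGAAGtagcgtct
Cnot11: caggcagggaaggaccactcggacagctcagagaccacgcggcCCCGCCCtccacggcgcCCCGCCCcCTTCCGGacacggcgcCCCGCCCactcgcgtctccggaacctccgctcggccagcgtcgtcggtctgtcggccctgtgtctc
In *Cnot10*, ETS letters begin 88, 64 and 15 bases before the start, and the last of these shares bases with a GC box. In *Cnot11*, an ETS match begins 82 bases before the start and lies between GC boxes at 107, 90 and 66 bases. All other promoters of the 38 genes with ETS letters belonged to genes that did not pass the test.

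The 4 deadenylase subunits come in 2 pairs of near-equivalent paralogs, of which each complex holds one of either pair: *Cnot6* or *Cnot6l*, of the exonuclease-endonuclease-phosphatase type, and *Cnot7* or *Cnot8*, of the DEDD type. Of these, 0 passed the test with edgeR, DESeq2 or limma-voom, beside 32.7%, 22.7% and 33% of all genes tested. With edgeR, 2 had an unadjusted p under 0.05, and all 4 values were positive, from 0.11 to 0.19, opposite in sign to *Cnot10* and *Cnot11*. Without control library 2, *Cnot6*, *Cnot6l* and *Cnot7* passed as higher (adjusted p = 0.0407, 0.0336 and 0.0167, over ranges of 0.0407 to 0.424, 0.0336 to 0.300 and 0.0167 to 0.296 in 14 alternative fits). *Cnot6* was at 122, 135 and 124 CPM in the controls and at 139, 146 and 139 CPM in the KO-labelled libraries, and *Cnot6l* at 135, 144 and 127 CPM and at 153, 148 and 154 CPM. In both genes the groups did not overlap but lay next to each other (adjusted p = 0.147 and 0.113). *Cnot7* was at 227, 256 and 214 CPM against 278, 268 and 250 CPM (log2 fold change 0.19, 95% interval 0.01 to 0.37, adjusted p = 0.0968), and *Cnot8* at 25.8, 26.5 and 26.3 CPM against 33.2, 27.2 and 24.6 CPM. For *Cnot7* the groups overlapped in 1 library, and for *Cnot8* the KO-labelled libraries spread on both sides of the controls.

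Neither pair was shown to change its balance. The log2 ratio of *Cnot6* to *Cnot6l* per kilobase was 0.55 ± 0.06 (SD, n = 3) in the controls and 0.54 ± 0.08 in the KO-labelled libraries (difference −0.01, SE 0.06, exact two-sided permutation p = 0.9), and that of *Cnot7* to *Cnot8* was 2.0 ± 0.12 and 2.09 ± 0.15 (difference 0.09, SE 0.11, exact p = 0.4). *Cnot7* thus held about 4.0 times the level of *Cnot8* per kilobase of annotated exon in the controls. With 3 libraries against 3 the smallest p this test can give is 0.1, and 6 such pairs were compared, for which the smallest adjusted value was 0.3. The 6 pairs were chosen with earlier results of these data known, so their p-values are not those of a blind choice.

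PAN2-PAN3 starts the shortening of long tails, with PAN2 as the enzyme and PAN3 as the subunit that binds the tail and its poly(A)-binding protein. *Pan3* rose, from 131, 133 and 128 CPM in the controls to 164, 165 and 170 CPM in the KO-labelled libraries (log2 fold change 0.35, SE 0.07, adjusted p = 0.00175). The libraries of each group were within a few CPM of each other, and the groups lay far apart. *Pan2* had 67.6, 66.7 and 67.5 CPM in the controls against 58.0, 52.8 and 61.8 CPM under the KO label, also without overlap, in the other direction, and did not pass (log2 fold change −0.23, 95% interval −0.41 to −0.04, adjusted p = 0.0556), though it passed as lower with limma-voom and in 4 of 14 alternative fits in all. The log2 ratio of *Pan3* to *Pan2* per kilobase was 0.14, 0.17 and 0.10 in the controls and 0.68, 0.83 and 0.64 in the KO-labelled libraries, a change in ratio from 1.1 to 1.64 that no scaling of the libraries can alter. This ratio was picked after the values were seen and was not tested. *Parn*, a separate deadenylase that also trims the ends of small RNAs, had a log2 fold change of −0.01 (95% interval −0.21 to 0.19).

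**Figure D2:**
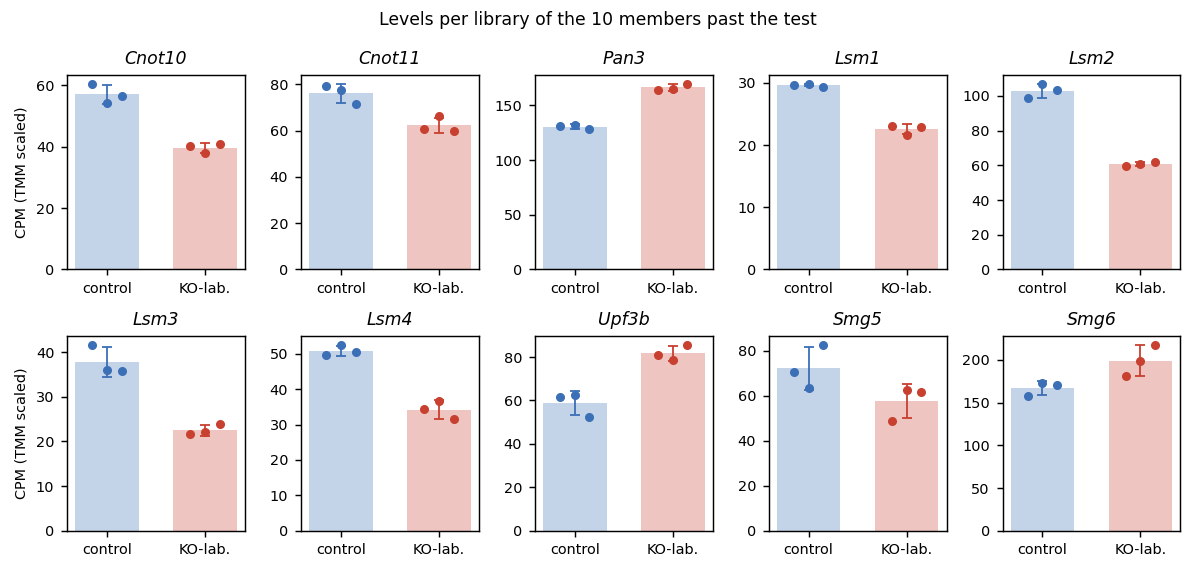
Level in each library (y axis, CPM with TMM scaling, from 0) of the 10 genes past the test; points are libraries, bars group means and error bars SD (n = 3). In each panel the 3 KO-labelled points lie wholly above or wholly below the 3 control points, and *Smg5* and *Smg6* have the least room between the groups.

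Of the 6 decapping genes, 0 passed the test, beside 32.7% of all genes tested, and 3 had an unadjusted p under 0.05. *Dcp2*, the enzyme that removes the cap, was nearest, at 96.6, 85.5 and 84.6 CPM in the controls against 105, 99.3 and 107 CPM under the KO label (log2 fold change 0.22, 95% interval 0.05 to 0.40, adjusted p = 0.0507), and it did pass as higher with DESeq2 and with limma-voom. *Edc3*, a scaffold that binds DCP2, had −0.26 (−0.48 to −0.04, adjusted p = 0.0701). Of its 50-base windows, 20.4% were also found in other genes on either strand, while 0% of its exonic bases overlap another gene on the same strand. *Edc3* and *Dcp1b* each passed as lower in 2 of the 14 alternative fits. *Edc4*, the large scaffold between DCP1 and DCP2, had 0.06 (−0.15 to 0.27), and *Dcps*, which clears the cap left after decay from the 3′ end, 0.00 (−0.23 to 0.22). The 2 DCP1 paralogs, which activate DCP2, had opposite signs. *Dcp1a* was at 55.2, 56.7 and 59.7 CPM in the controls and at 60.4, 62.0 and 60.2 CPM in the KO-labelled libraries, and *Dcp1b* at 29.3, 31.8 and 31.6 CPM and at 26.1, 26.2 and 26.5 CPM (adjusted p = 0.432 and 0.0712).

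The groups of both genes lay next to each other without overlap, and their ratio separated them more widely. The log2 ratio of *Dcp1a* to *Dcp1b* per kilobase was 0.54, 0.46 and 0.54 in the controls and 0.84, 0.87 and 0.81 in the KO-labelled libraries (difference 0.32, SE 0.03). The exact two-sided permutation p was 0.1, the smallest possible, and 0.3 after adjustment over the 6 pairs, which were chosen with earlier results known. *Dcp1a* was thus at 1.43 times the level of *Dcp1b* per length in the controls and at 1.79 times in the KO-labelled libraries.

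Neither 5′-3′ exonuclease passed the test, beside 32.7% of all genes tested that did, and their intervals were narrow. *Xrn1*, the cytoplasmic enzyme, was at 97.5, 105 and 101 CPM in the controls and at 97.1, 100 and 109 CPM in the KO-labelled libraries (log2 fold change 0.01, 95% interval −0.16 to 0.18). *Xrn2*, the nuclear enzyme that also ends transcription, was at 285, 297 and 252 CPM and at 284, 288 and 308 CPM (log2 fold change 0.08, 95% interval −0.10 to 0.25). Both sets of libraries overlapped, as did the log2 ratio of *Xrn1* to *Xrn2* per kilobase (−3.67 ± 0.12 against −3.75 ± 0.03, SD, n = 3, difference −0.07, SE 0.07, exact p = 0.4).

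In the UPF group, 1 of 4 genes passed the test, beside 32.7% of all genes tested. UPF1 is the helicase at the centre of NMD, UPF2 the bridge to the exon junction complex, and UPF3A and UPF3B are paralogs that bind that complex, UPF3B being the stronger NMD activator. *Upf3b*, which is X-linked, rose from 61.8, 62.4 and 52.5 CPM in the controls to 80.9, 78.6 and 85.5 CPM in the KO-labelled libraries (log2 fold change 0.47, SE 0.09, adjusted p = 0.000946), the largest rise among the 38. Every KO-labelled library exceeded every control. *Upf3a* was at 57.5, 59.6 and 48.4 CPM and at 53.4, 53.6 and 51.2 CPM, with overlapping groups (log2 fold change −0.07, 95% interval −0.27 to 0.14). *Upf1* had −0.14 (−0.33 to 0.04) and *Upf2* −0.05 (−0.21 to 0.12).

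The ratio of the 2 paralogs, 1 of the 6 pairs chosen with earlier results known, separated the groups within a library. The log2 ratio of *Upf3a* to *Upf3b* per kilobase was −0.66, −0.62 and −0.67 in the controls and −1.15, −1.11 and −1.29 in the KO-labelled libraries (difference −0.54, SE 0.06, exact two-sided permutation p = 0.1, the smallest possible, 0.3 after adjustment over the 6 pairs). *Upf3a* stood at 0.638 of the level of *Upf3b* per length in the controls and at 0.440 in the KO-labelled libraries. The promoter of *Upf3b*, on the minus strand at chrX:37110323-37110572, is shown in full (250 bases) as that of the gene with the largest rise.
Upf3b: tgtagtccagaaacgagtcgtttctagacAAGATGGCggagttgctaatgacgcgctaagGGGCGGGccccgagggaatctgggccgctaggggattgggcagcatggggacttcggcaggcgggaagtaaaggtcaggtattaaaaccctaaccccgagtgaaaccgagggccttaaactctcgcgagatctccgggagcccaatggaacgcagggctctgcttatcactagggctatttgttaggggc
Its capitals mark YY1 letters that begin 221 bases before the RefSeq start and a GC box on the opposite strand that begins 190 bases before it. YY1 letters were in 2 of the 41 promoters (4.88%), the other being of *Lsm7*, which did not pass the test, and in 1.56% of all promoters.

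Of the 5 SMG genes, 1 rose and 1 fell, beside 16.2% and 16.5% of all genes tested. *Smg6*, the endonuclease that cuts NMD targets near the stop codon, was at 158, 173 and 171 CPM in the controls and at 181, 199 and 217 CPM in the KO-labelled libraries (log2 fold change 0.25, SE 0.08, adjusted p = 0.0316). *Smg5*, the adaptor that binds phosphorylated UPF1 and leads the mRNA to deadenylation and decapping, was at 70.5, 63.6 and 82.5 CPM and at 48.9, 62.4 and 61.6 CPM (log2 fold change −0.32, SE 0.11, adjusted p = 0.0396). The groups did not overlap in either gene, but *Smg5* control library 2 lay just above KO-labelled library 2. The ratio of *Smg6* to *Smg5* per kilobase went from 1.91 to 2.85, with no overlap between the groups; it was chosen after the values were seen and was not tested. Both calls were weak: *Smg6* did not pass without control library 1 or 3 or KO-labelled library 2 or 3 (adjusted p = 0.163, 0.0519, 0.0779 and 0.119, over a range of 0.00802 to 0.333 in 14 alternative fits), and *Smg5* did not pass without control library 1 or 3 or KO-labelled library 1 (0.0758, 0.177 and 0.164, over a range of 4.43e-05 to 0.177). *Smg1*, the kinase of UPF1, had −0.13 (95% interval −0.30 to 0.05), and its partners *Smg8* and *Smg9* had 0.04 (−0.18 to 0.26) and −0.29 (−0.57 to −0.01, adjusted p = 0.107). In all, 14 ratios between partners were computed after the values were seen. The groups did not overlap in 13 of them and overlapped for *Smg9* to *Smg8* (difference −0.32, SE 0.22). Since the values were known when the pairs were picked, this count is no test.

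**Figure D3:**
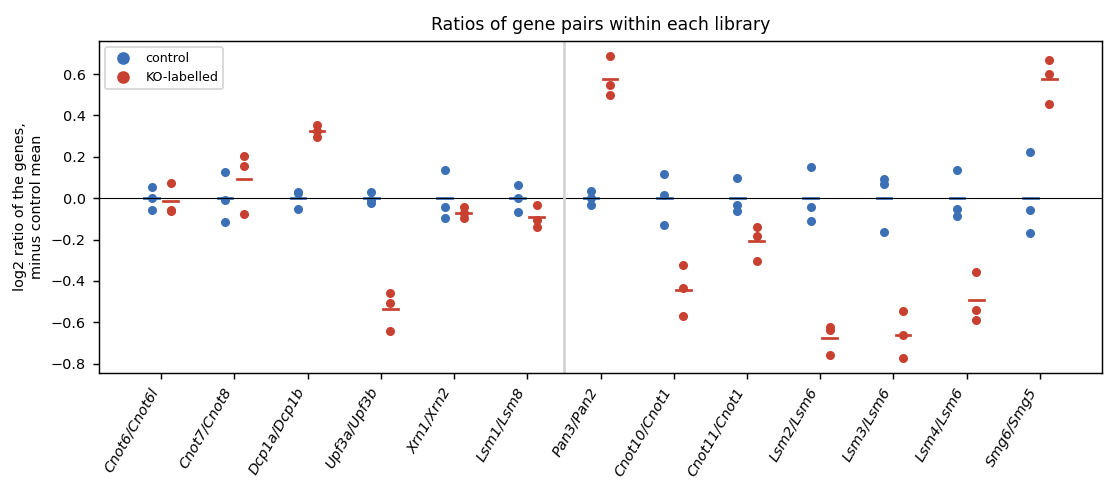
Log2 ratio of the 2 genes of each pair in each library, minus the mean of the 3 controls (y axis). Points are libraries and short lines group means. Left of the grey line are the 6 paralog pairs, chosen with earlier results of these data known. To its right are 7 of the 14 pairs chosen after the values were seen. Of the 6 paralog pairs, *Dcp1a/Dcp1b* (up by 0.32) and *Upf3a/Upf3b* (−0.54) have separate groups and the other 4 overlap.

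Levels between genes were compared per kilobase of exon. The length is that of all annotated exons of a gene, which can exceed that of the RNA present. The order of the genes thus depends on the annotation as well. In the controls the highest by this measure were *Xrn2*, at 69.8 ± 5.89 CPM per kilobase (SD, n = 3), *Lsm4* at 49.1 ± 1.37, *Cnot9* at 40.8 ± 5.83 and *Cnot7* at 39.9 ± 3.62. The last 2 did not differ beyond their spread. At the other end stood *Edc3*, at 4.64 ± 0.132, *Dcp1b* at 4.87 ± 0.221, *Smg9* at 5.35 ± 0.865 and *Xrn1* at 5.46 ± 0.213. Within the LSM1-7 ring, whose proteins are used in equal number, levels per length ran from 9.58 ± 0.0683 for *Lsm1* to 49.1 ± 1.37 for *Lsm4*. Without division by length, these 2 genes had control means of 29.6 and 50.9 CPM, with annotated lengths of 3093 and 1038 bases. *Cnot10*, at 8.62 ± 0.474 in the controls and 5.99 ± 0.241 in the KO-labelled libraries, was the lowest of the CCR4-NOT genes in both groups. The genes are spread over 15 chromosomes, with 8 on chromosome 8 (21.1%, beside 5.18% of the genes tested), *Lsm1*, *Lsm4* and *Lsm6* among them. Counts are less certain for *Cnot3* and *Lsm7*, of which 13.5% and 14.3% of the 50-base windows also occur in other genes, on either strand. The same holds for *Edc4*, of which 8.33% of exonic bases overlap another gene on the same strand.

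**Figure D4:**
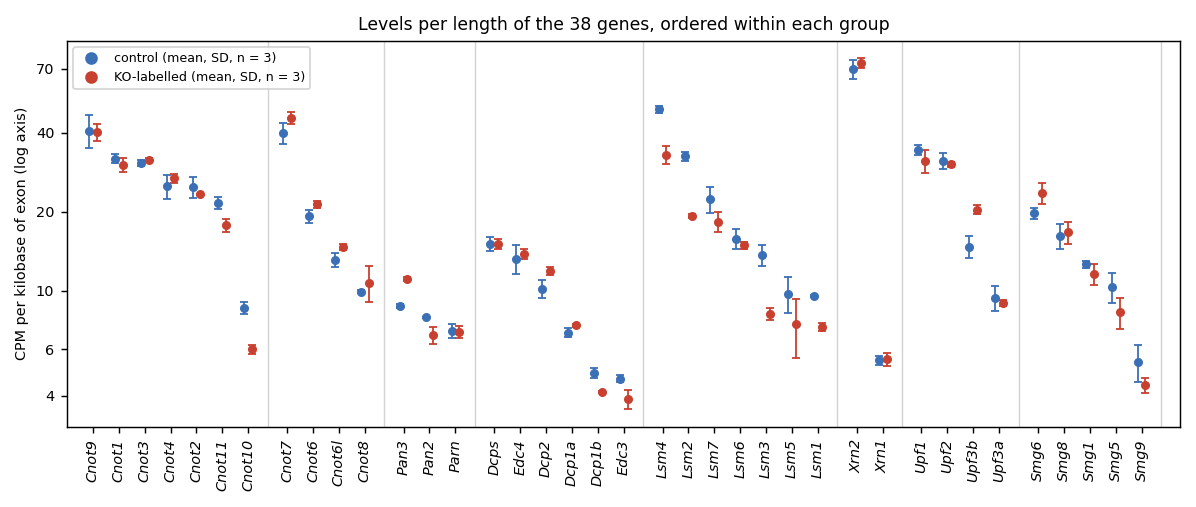
Mean level of each of the 38 genes in CPM per kilobase of exon (log y axis) in control and KO-labelled libraries, with SD (n = 3), ordered by the control level within each complex. *Xrn2* is the highest and *Edc3* the lowest in the controls, and *Lsm2*, *Lsm3* and *Lsm4* show the widest gaps between the groups in the LSM ring.

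Since the germ cell markers were lower and the Sertoli cell markers higher, the changes were also computed relative to somatic markers. The scaling factors came from 42 markers of Sertoli, Leydig, myoid, macrophage, endothelial and stromal cells. With TMM these did not move together. Median log2 fold changes were 0.72 for Sertoli, 0.52 for Leydig, 0.49 for macrophage, 0.36 for stromal, 0.19 for endothelial and −0.26 for myoid markers. The factors thus depend on how many markers each list holds. This moved the median of all genes by −0.40 on the log2 scale, and 2.5% of all genes then rose and 42.6% fell. Among the 38, 0 rose by the quasi-likelihood test (0 also at an unadjusted p under 0.05) and 30 fell, with a median of −0.47. *Upf3b* was the only one with a positive value (0.06, adjusted p = 0.696, over a range of 5.42e-06 to 0.696 in 14 alternative fits), *Pan3* had −0.06 (adjusted p = 0.714, range 1.44e-05 to 0.714) and *Smg6* −0.15 (adjusted p = 0.333). The 3 rises are therefore relative to the whole library and not to the somatic markers, where these 3 genes stood with *Dcp2* (−0.19), *Cnot7* (−0.22), *Cnot6l* (−0.24), *Cnot6* (−0.26) and *Cnot8* (−0.30) as the 8 that did not pass. With TMM but only genes of at least 10 counts in every library, 11 of the 38 fell, beside 19.3% of the genes tested. *Lsm2* and *Lsm3*, at −1.16 and −1.15, fell the most under the somatic scaling too. *Cnot10* and *Lsm1* to *Lsm4*, passed the test in the same direction in all 14 alternative fits.

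**Figure D5:**
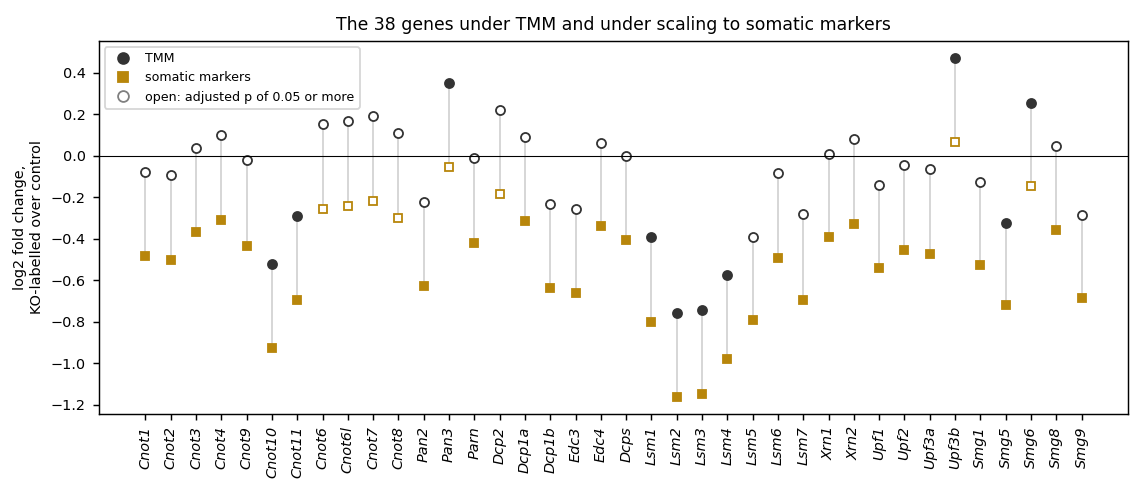
Log2 fold change (y axis, KO-labelled over control) of the 38 genes with TMM scaling (circles) and with scaling to somatic markers (squares); open symbols did not pass the test. The squares lie about 0.40 below the circles, 30 of them are filled, and only *Upf3b* stays above 0.

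The genes that work with this machinery were taken as 5 lists of 73 genes, of which 72 were tested; 13 rose and 17 fell, beside 16.2% and 16.5% of all genes. Without control library 1, 8 rose, beside 11.3% of the genes tested in that fit. Without control library 2, 11 fell, beside 12.5%. Of the adaptors that bring CCR4-NOT to selected mRNAs, 9 were higher and 3 lower of 20 tested. With scaling to somatic markers 1 was higher and 7 were lower, beside 2.5% and 42.6% of all genes tested. Their balance thus turned with the scaling, and no test of the list was made. *Zfp36*, which encodes the AU-rich element binding protein tristetraprolin, rose from 19.4, 15.3 and 20.6 CPM to 35.0, 32.7 and 31.0 CPM (log2 fold change 0.84, SE 0.12, adjusted p = 0.000104), and *Samd4*, the homologue of fly Smaug, rose by 0.62 (adjusted p = 0.000194). *Nanos1*, of a germline family that recruits CCR4-NOT, fell from 17.7, 15.3 and 13.9 CPM to 5.56, 4.60 and 7.96 CPM (log2 fold change −1.37, SE 0.19, adjusted p = 6.86e-05), and *Rc3h2*, which encodes a stem-loop binding roquin protein, fell by 0.28 (adjusted p = 0.0177). With TMM, the changes of *Zfp36*, *Samd4* and *Nanos1* were larger in size than that of any CCR4-NOT gene. With scaling to somatic markers, *Cnot10* had −0.93, and the order of the genes was not compared there.

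The counts of the next lists stand beside 16.2% of all genes tested that rose and 16.5% that fell. Of 13 genes that act on poly(A) tails, 1 rose and 6 fell. *Angel1* and *Angel2*, relatives of the CNOT6 enzymes, fell by 1.01 and 0.47 on the log2 scale (adjusted p = 7.64e-05 and 0.000434), and *Paip1*, which encodes a partner of the poly(A)-binding protein, rose by 0.28 (adjusted p = 0.020). Of 15 partners of decapping, 1 rose and 4 fell: *Pnrc1*, a DCP1 cofactor, rose by 0.54 (adjusted p = 6.93e-05), and *Dxo*, an enzyme for faulty caps, and *Lsm14b*, which encodes a protein of ribonucleoprotein granules, fell by 0.83 and 0.39 (adjusted p = 0.000110 and 0.00387).

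Of 16 partners of NMD, 0 rose (1 at an unadjusted p under 0.05, 0 with DESeq2 or limma-voom) and 3 fell, among them *Rnps1* (−0.49, adjusted p = 0.00236) and *Magoh* (−0.37, adjusted p = 0.00951), both of the exon junction complex. The RNAs known as NMD substrates gave no common direction: of 8 tested, 2 rose, 1 fell and 5 did not pass. *Atf3* rose from 2.59, 2.54 and 2.75 CPM to 4.37, 6.93 and 5.21 CPM (log2 fold change 1.07, SE 0.21, adjusted p = 0.00144) and *Atf4* rose by 0.38 (adjusted p = 0.0161), both encoding stress transcription factors, while *Snhg1*, a spliced host of small nucleolar RNAs, fell by 0.40 (adjusted p = 0.0169). Relative to the somatic markers, 2 of the 72 genes rose and 48 fell, beside 2.5% and 42.6% of all genes tested.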

How the data were processed

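The 6 deposited columns hold raw counts per gene, which the authors made by trimming with cutadapt, aligning 50-base single-end reads with HISAT2 (to GRCm38.p5 per the labels; the methods write mm10) and counting with featureCounts 1.6.4 on 1 strand over GENCODE M18 exons; reads with several hits or several genes are left out, so paralogs and overlapping genes are under-counted. The table also gives exonic length; 0 library columns were unused. Symbols came from GENCODE M21 (54079 of 54232 genes). Counts of the whole table were tested with edgeR 4.0.16 under R 4.3.3 (filterByExpr, TMM, glmQLFit, glmQLFTest, checked on simulated data), with a Benjamini-Hochberg adjusted p under 0.05 as a call. Intervals are 95% from the quasi-likelihood fit; SE is the log2 fold change over the square root of F. Pair ratios used raw counts per kilobase of exon with no added count. For the paralog pairs, an added count of 1 was an alternative and the libraries were permuted exactly. Plots used matplotlib 3.10.9. Members, lists and pairs were chosen with earlier results of these data known. All members may be named; of other lists, up to 2 genes with the smallest adjusted p per direction. Alternatives were other scaling factors, filters, DESeq2 1.42.0, limma-voom 3.58.1, a replicate block and leaving out each library. Deviations from the group means of same-numbered libraries correlated at 0.05, −0.06 and 0.05. Marker lists for peritubular myoid cells (0 higher, 3 lower of 5), Leydig cells (5 higher of 7), macrophages (5 of 6), endothelial (2 of 6) and stromal cells (3 of 6) and erythroid cells (0 of 3 tested) were counted as well.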

Additional observations from a re-analysis of the deposited data

How the results depend on the processing

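Scaling decided the direction of the small changes. With factors from somatic markers, 0 of the 38 genes were higher and 30 lower, their median was −0.47, and of the other genes of the pathway 2 were higher and 48 lower; *Cnot3* (−0.37), *Cnot4* (−0.31), *Pan3* (−0.056), *Dcp1a* (−0.31), *Edc4* (−0.34), *Xrn1* (−0.39), *Xrn2* (−0.33), *Smg6* (−0.15), *Smg8* (−0.36), *Cnot6* (−0.26), *Cnot6l* (−0.24), *Cnot7* (−0.22), *Cnot8* (−0.30) and *Dcp2* (−0.19) turned negative, which is every positive member but *Upf3b*, and each member's value moved by about the shift of all genes. With at least 10 counts in every library, which tests fewer genes, 11 members were lower. Leaving out 1 library at a time gave 2 to 6 members higher and 5 to 8 lower, a median of −0.111 to 0.028, and 8 to 13 other pathway genes higher and 11 to 14 lower. Of all genes tested in these fits, 11.3% to 15.4% were higher and 12.2% to 15.4% lower. Control library 2 was the one left out for the 6 members higher, the median of 0.028 and the 11 other pathway genes lower, and control library 1 for the 8 other pathway genes higher. The no-filter fit held 42383 genes and changed no member's call. With the replicate number as a block, 3 members were higher, 7 lower, and no member changed its call; the labels share only numbers, with correlations that do not pair the libraries. Without 1 library, the difference between the groups in the log2 ratio of *Cnot6* to *Cnot6l* ran from −0.060 to 0.013, on both sides of 0, and the differences for the other 5 paralog pairs kept their sign. All values rest on 3 libraries a group of whole tissue.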
